A study of Mus musculus with 15 samples.

Results

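Culture experiment 1 of a macrophage activation study is described here against culture experiments 2 and 3, over the same 5 treatments. Its members are the 5 arrays labelled replicate 1, of 15 arrays in all, and the 10 arrays of replicates 2 and 3 form the comparison. Arrays with the same replicate number also share an experiment identifier in the labels. All arrays hold total RNA of RAW264.7 cells, an established mouse macrophage line, harvested at 24 h. In each experiment, 1 culture received 1.0 µg/mL lipopolysaccharide (LPS, a bacterial outer-membrane component sensed by Toll-like receptor signalling) after 30 min with 5.0 µM 13-HDHEA, 1 with 5.0 µM 16-HDHEA, 1 with 2.5 µM of each, and 1 with vehicle, and a last culture received vehicle and no LPS. 13-HDHEA and 16-HDHEA are hydroxylated docosahexaenoyl ethanolamides, and ethanol was kept at 0.1% everywhere. The question is which genes set experiment 1 apart from experiments 2 and 3, which had the same treatments.

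LPS drives macrophages through NF-kB to make cytokines, and through interferon-beta to make a later wave of interferon-stimulated genes. It also slows their division, so that genes of DNA replication, histone supply and mitosis fall together. RAW264.7 cells divide quickly and answer LPS strongly, which is why they are a standard model of this response. What the identifiers cover (day, passage, labelling or scan) is not given in the sources used here, and these cannot be told apart.

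Values are log2 intensities, differences are experiment 1 minus the mean of experiments 2 and 3 within treatments, and a gene was called at an adjusted p under 0.05 in limma. Of 15468 genes tested, 637 were called (4.12%), with 342 higher (2.21%) and 295 lower (1.91%) in experiment 1. Most of these differences were small: the median size among called genes was 0.32, 64 genes differed at least 1.5-fold (27 higher and 37 lower) and 10 at least 2-fold (5 and 5). Of the called genes, 596 had the same sign in all 5 treatments, and in 442 the experiment 1 array lay outside both others in every treatment. Over all genes, 958 lay outside in this way (6.19%), 548 above (3.54%) and 410 below (2.65%). The calls use the same arrays, so the counts of 596 and 442 are partly fixed by the calls. RNA came from whole cultures, so a changed share of cells in a state and changed RNA per cell cannot be told apart.

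The other pairs of experiments also differed. Experiment 1 against experiment 3 gave 671 calls (4.34%), 381 higher (2.46%) and 290 lower (1.87%), and experiment 1 against experiment 2 gave 352 (2.28%), 189 higher (1.22%) and 163 lower (1.05%). Experiment 2 against experiment 3 gave 211 (1.36%), 118 higher (0.763%) and 93 lower (0.601%), and 749 genes differed among the 3 experiments in any way (4.84%). The order of these counts was not stable: without the 13-HDHEA array of experiment 3 they were 249 against experiment 3 and 272 against experiment 2, and without its 16-HDHEA array 196 and 262. In comparison, LPS with vehicle against no LPS, fitted with the experiment as a block, gave 5313 calls (34.3%), 2420 higher (15.6%) and 2893 lower (18.7%). These p-values measure the spread between arrays, and the 5 arrays of an experiment share whatever that experiment covers. With 1 mean for each experiment as the unit, 4 genes were called (0.0259%): Stfa2l1, Cstdc4 and Csta3 were higher (0.0194%) and Ighm was lower (0.00646%), and 1204 genes had an unadjusted p under 0.05. Cstdc4 rose above the array's 40th percentile, which testing required, in experiment 1 alone, so its call could only be higher. The count of 637 also rested on single arrays. It was 148, 150, 255 and 281 without the experiment 1 array of the combined treatment, 16-HDHEA, 13-HDHEA or vehicle with LPS. Without the 16-HDHEA or combined array of experiment 2 it was 360 and 366, and without the 16-HDHEA, 13-HDHEA or combined array of experiment 3 it was 293, 348 and 388. Of 114 called genes followed one by one, 40 kept the call whichever of the 15 arrays was left out, and these lead the text below. Leaving out a whole experiment cost more: 10 of the 114 kept the call without experiment 3, and 54 without experiment 2. On the groups without HDHEA alone, all 114 lost it.

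**Figure D1:**
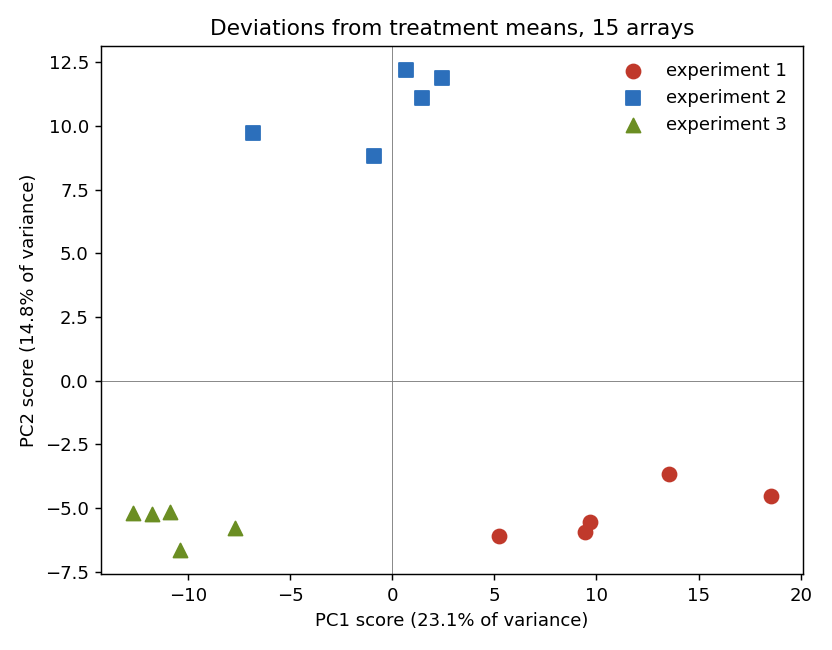
Scores of the 15 arrays on the first 2 principal components of their deviations from treatment means, over the genes tested, with 1 point per array. The 5 experiment 1 arrays lie at 5.24 or more on PC1 (23.1% of the variance), and those of experiment 3 at the other end, at -7.67 or less. Experiment 2 lies between them on PC1, from -6.80 to 2.43, and is set apart on PC2 (14.8%).

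Of 23 macrophage markers, 19 lay above the array's median in both groups, at mean percentiles of 60.6 to 99.9 in experiment 1 and 59.2 to 99.9 in experiments 2 and 3, with Cd68, Lyz2 and Itgam at 99.5 or more. Mrc1, the mannose receptor, lay at 37.8 in experiment 1, against 34.7, and Cd36, Ly6c1 and Ly6c2 were too dim to be tested (13.6 to 20.5 in experiment 1, against 16.3 to 20.9). Of the 20 tested, Mertk, a receptor for dying cells, was called higher (0.30, adjusted p = 0.0159 in limma), and Marco, a scavenger receptor, and Aif1 were called lower. Marco lay at 10.34 to 10.49 on the 4 LPS arrays of experiment 1, against 10.64 to 11.03 (median 10.92) on the 8 LPS arrays of experiments 2 and 3, and the groups did not overlap. The Mertk call came from experiment 2 (difference 0.57), since its difference from experiment 3 was 0.04, and the Mertk and Aif1 calls were lost without some experiment 1 arrays (adjusted p up to 0.0666 and 0.0762). None of the 10 fibroblast, 4 lymphocyte, 7 neutrophil, 10 epithelial and endothelial and 2 erythroid markers tested was called, against 4.12% of all genes. Lists this short can hold no call at that share.

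Several LPS-induced genes of secreted signals were higher in experiment 1. Csf3, which encodes the granulocyte growth factor G-CSF, had 10.06, 10.32, 10.26 and 10.05 on the experiment 1 arrays with LPS and 13-HDHEA, 16-HDHEA, both or vehicle, and 3.14 without LPS. The 8 LPS arrays of experiments 2 and 3 lay between 8.50 and 9.001 (median 8.69), and those without LPS at 3.14 and 2.99. Every experiment 1 array with LPS was above every other array, while without LPS the experiments lay together near background. The difference over the 5 treatments was 1.17 ± 0.17 (SE), 2.24-fold (adjusted p = 0.00736 in limma).

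Both subunits of interleukin-23, the cytokine that maintains inflammatory T helper 17 cells, were higher as well. Il23a, its own p19 chain, had 7.81, 8.41, 8.37 and 8.53 on the LPS arrays of experiment 1 in the same order and 3.40 without LPS. In experiments 2 and 3 it lay between 7.02 and 7.78 (median 7.29) with LPS and at 3.18 and 3.21 without. The values without LPS there are near the array's 40th percentile (3.16 to 3.22). Il12b, the p40 chain that interleukins 12 and 23 share, had 6.67, 7.001, 6.91 and 6.90 with LPS and 4.23 without in experiment 1, against 5.54 to 6.43 (median 6.12) and 3.74 and 3.85 in experiments 2 and 3. Both genes were higher in all 5 treatments, by 0.81 ± 0.13 for Il23a (adjusted p = 0.009 in limma) and 0.74 ± 0.09 for Il12b (adjusted p = 0.00424). The receptor gene Il23r went the other way, at 5.39 to 5.66 on the LPS arrays of experiment 1 and 5.91 to 6.49 (median 6.22) on those of experiments 2 and 3. Its difference was -0.62 (adjusted p = 0.0174), a call lost without any of the 16-HDHEA, combined or vehicle arrays with LPS of experiment 1 (adjusted p up to 0.0726).

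In the list of pro-inflammatory cytokines, 4 of 19 genes were higher and 2 lower, against 2.21% and 1.91% of all genes. The list's median difference was 0.10, against 0.00 over all genes. That median was 0.061 without the no-LPS array of experiment 1 and 0.0096 without all of experiment 2. Lif, an interleukin-6 family cytokine, was the other higher one (0.63), with a call lost without 8 of the 15 arrays (adjusted p up to 0.0972). The lower ones were Tnfsf10, which encodes the death ligand TRAIL (-0.70, adjusted p = 0.0137), and Ebi3, a subunit of interleukin-27 (-0.24, adjusted p = 0.0193). Without the combined array of experiment 1 neither of these was called (adjusted p = 0.0623 and 0.0851). Tnf, Il1b and Il6, the classical products of LPS-activated macrophages, did not pass, with differences of 0.10, 0.10 and 0.12 and adjusted p between 0.299 and 0.334. On the LPS arrays Tnf lay at 12.52 to 12.65 in experiment 1 and 12.40 to 12.49 in experiments 2 and 3.

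Of the inducible enzymes, Nos2, which makes nitric oxide, had 9.32 to 9.60 on the LPS arrays of experiment 1 and 8.72 to 9.47 on those of experiments 2 and 3, and did not pass (0.35, adjusted p = 0.0841). Ptgs2, the prostaglandin-forming cyclooxygenase 2, had 12.45 to 12.50 and 12.19 to 12.35, and its difference of 0.28 passed at an adjusted p of 0.0472. That call was lost without 14 of the 15 arrays (adjusted p up to 0.109). Il1rn, the natural antagonist of interleukin-1, was higher by 0.40 ± 0.06 (adjusted p = 0.00872), and its LPS arrays did not overlap, at 10.12 to 10.21 against 9.62 to 10.01. Serpinb2, a plasminogen activator inhibitor strongly induced by LPS, was higher by 0.61 ± 0.09 (adjusted p = 0.0059), at 10.10 to 10.53 against 9.27 to 9.93.

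**Figure D2:**
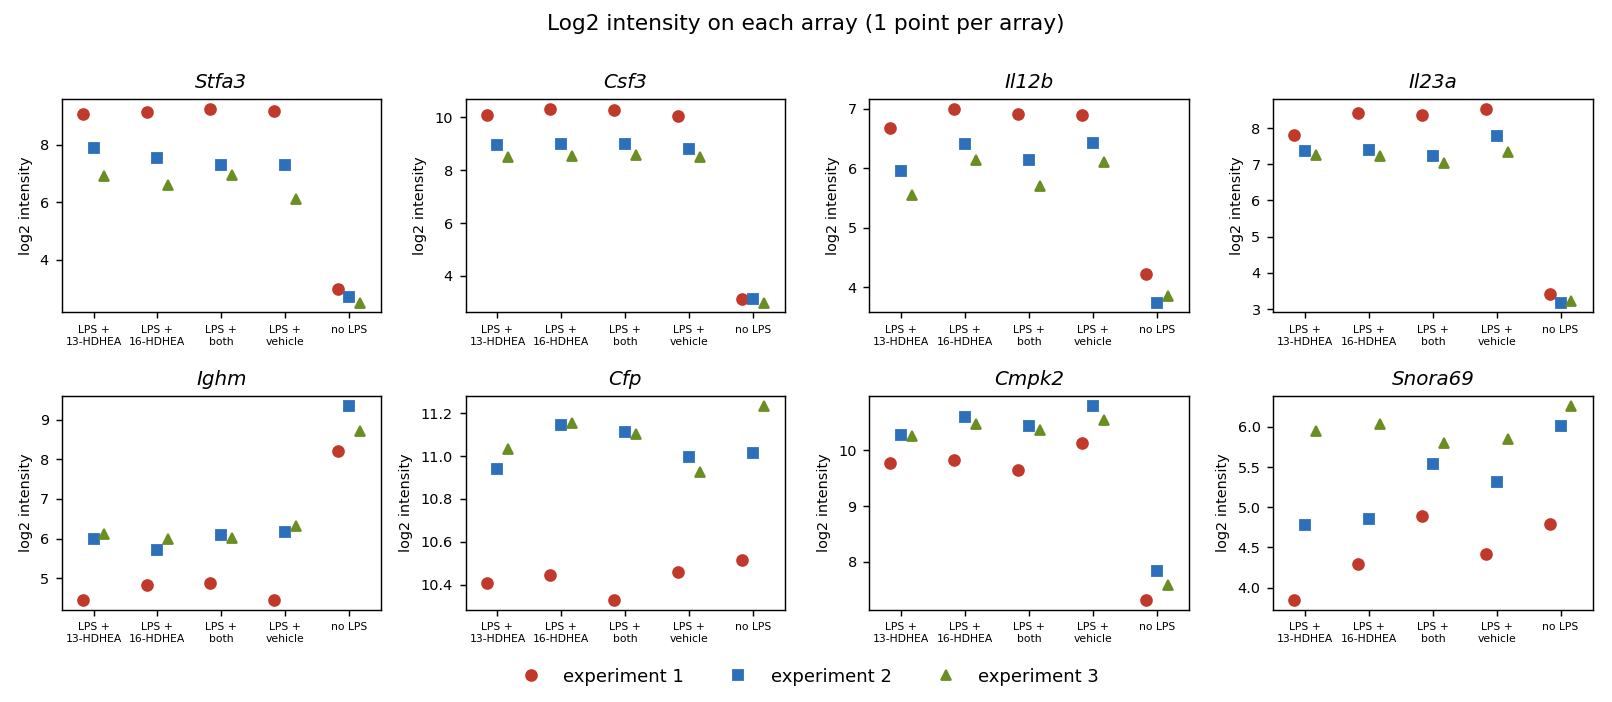
Log2 intensity of 8 genes on each of the 15 arrays, by treatment, with 1 point per array and a colour and shape for each experiment. With LPS, the experiment 1 points of Stfa3, Csf3, Il12b and Il23a lie above all points of the other experiments, and those of Ighm, Cfp and Cmpk2 lie below them.

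A family of cysteine protease inhibitors, the stefin A genes and related cystatins on chromosome 16, held the largest differences. Of 13 such genes on the array, 7 were tested and 5 were called, all higher, against 2.21% of all genes, with a median of 1.17. Cstdc4 passed the filter on low values only through experiment 1, so its call could only be higher. It reached 2.98 at most in experiments 2 and 3, below the array's 40th percentile (3.16 to 3.22). The family was picked out after its values were seen, and its members are near-identical copies whose probes may share signal, so which copy differed is uncertain. Stfa3 had 9.06, 9.13, 9.25 and 9.17 on the LPS arrays of experiment 1 (13-HDHEA, 16-HDHEA, both, vehicle) and 2.98 without LPS. In experiments 2 and 3 it lay between 6.11 and 7.87 (median 7.12) with LPS and at 2.71 and 2.51 without. It was 3.35-fold higher over the 5 treatments, by 1.74 ± 0.24 (adjusted p = 0.0059 in limma). Stfa2l1 was higher by 1.78 ± 0.28 (adjusted p = 0.009), at 5.55 to 5.85 on the LPS arrays of experiment 1 and 2.88 to 3.83 on those of experiments 2 and 3. All values without LPS of Stfa3 and Stfa2l1 lay below the array's 40th percentile. They have no order, but the mean differences of these genes include them.

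Csta3 followed, at 6.08 to 6.50 on the LPS arrays of experiment 1 and 4.29 to 5.76 on those of experiments 2 and 3, a difference of 1.17 ± 0.23 (adjusted p = 0.0224). That mean also includes values without LPS that all lay below the array's 40th percentile. Stfa1 and Cstdc4 lay below the 40th percentile of the array on average in experiments 2 and 3, so their folds are lower bounds from that percentile: at least 1.55-fold and at least 1.39-fold higher. Calls of Csta3, Stfa1 and Cstdc4 were lost without some arrays (adjusted p up to 0.0857, 0.0542 and 0.105), and the first and last of these without any one of the 4 LPS arrays of experiment 1. Stefins are abundant in neutrophils. The 7 neutrophil markers tested had a median difference of 0.09 and none was called, against 4.12% of all genes. Their summed level ran from 6.12 to 7.12 in experiment 1 and from 6.17 to 6.84 in experiments 2 and 3. Of all 12 markers of the list, 6 had a higher mean percentile in experiment 1 and 6 a lower one, and 5 were too dim to be tested, among them Camp (21.7 in experiment 1, against 28.1) and S100a9 (31.5, against 29.0). S100a8, a calcium-binding protein gene, had 5.33 to 5.64 on the LPS arrays of experiment 1 and 4.49 to 4.97 on those of experiments 2 and 3, without overlap, and a difference of 0.58 (adjusted p = 0.0535). Their part in the stefin values was not tested.

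The small proline-rich 2 genes, a cluster on chromosome 3 best known for proteins of the skin's cornified envelope, held higher calls as well. Of 8 on the array 7 were tested and 4 were called, and the 3 others also lay above 0, with a family median of 0.71. The family was likewise picked out after its values were seen, and its members are close copies. Sprr2g had 6.63, 6.97, 6.52 and 6.89 on the LPS arrays of experiment 1 and 2.09 without LPS, against 5.53 to 6.53 (median 5.81) and 1.79 and 1.61 in experiments 2 and 3. It was higher in every treatment with LPS, although its LPS ranges touched. The 3 values without LPS lay below the array's 40th percentile, so they have no order. Over all treatments, those values included, the mean difference was 0.71 ± 0.11 (adjusted p = 0.00848). Sprr2h (0.92) and Sprr2e (0.90) had adjusted p of 0.0118 and 0.0152, and lost the call without the 16-HDHEA or combined array of experiment 1 (up to 0.0582 and 0.0662). The values of Sprr2h without LPS were likewise all below the 40th percentile. None of 10 epithelial and endothelial markers tested was called, against 4.12% of all genes, with a median of 0.00.

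**Figure D3:**
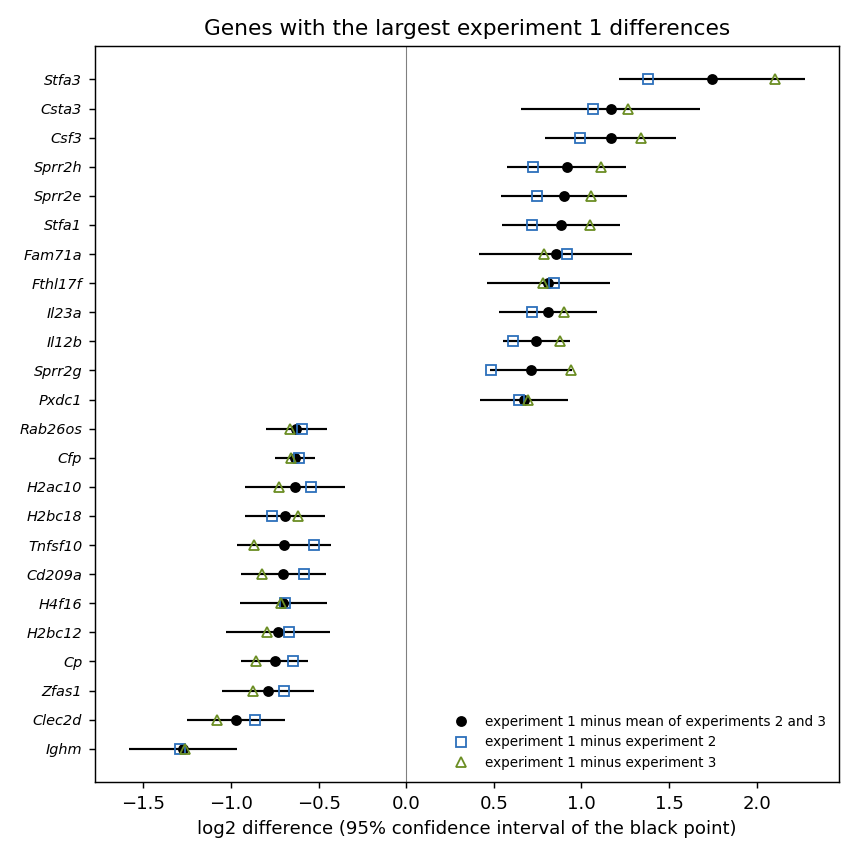
Log2 differences of the 12 genes with the largest increase and the 12 with the largest decrease in experiment 1, by the rule for named genes, with 95% confidence intervals from limma. Squares and triangles give the difference from experiment 2 and from experiment 3, and the rule keeps only genes where both lie on the same side of 0.

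Of 25 glycolysis and hypoxia genes tested, 6 were higher in experiment 1, against 2.21% of all genes. None was lower, 19 did not pass, and the list's median was 0.09. Against experiment 2 alone 1 was higher, and against experiment 3 alone 7. Ero1a, the oxidase that forms disulfide bonds in the endoplasmic reticulum, had 10.69, 10.74, 10.85 and 10.73 with LPS and 10.13 without in experiment 1, against 10.25 to 10.67 (median 10.44) and 9.94 and 9.38 in experiments 2 and 3. All 5 experiment 1 arrays were above both others of their treatment, by a mean of 0.34 ± 0.05 (adjusted p = 0.009). This was mostly a distance from experiment 3 (0.52, adjusted p = 0.00305), with 0.15 against experiment 2 (adjusted p = 0.222), and experiment 2 also exceeded experiment 3 (0.38, adjusted p = 0.0159). The others were the prolyl hydroxylases P4ha1 (0.25) and P4ha2 (0.30), Mxi1 (0.34), Ndrg1 (0.41) and the glycolytic enzyme Pfkp (0.22), and 9 of the 15 arrays took the count down by over 1.5 times, to 1 without the vehicle array with LPS of experiment 1. Fam162a, a hypoxia-induced mitochondrial protein gene outside the list, was higher by 0.64 ± 0.08 (adjusted p = 0.00424), at 9.72 to 9.86 on LPS arrays of experiment 1 and 8.80 to 9.26 on those of experiments 2 and 3.

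Immediate early genes respond to growth factors and stress within minutes. Of 29 tested, 6 were called higher, against 2.21% of all genes, and none lower, with a median of 0.08. The 6 were Klf2 (0.60), Klf4 (0.56), Egr1 (0.56), Egr2 (0.46), Dusp6 (0.40) and Ier3 (0.32). None kept its call through all left-out arrays. Without the vehicle array with LPS of experiment 1 no member was called, and 11 of the 15 arrays lowered the count by over 1.5 times.

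Among other genes whose call kept through every left-out array, Plk3, a stress-responsive kinase, was higher by 0.44 (adjusted p = 0.00662), Ppard, a nuclear receptor for fatty acids, by 0.43 (adjusted p = 0.00848), and Itgav, an integrin subunit, by 0.40 (adjusted p = 0.00464). The LPS arrays of experiment 1 lay above those of experiments 2 and 3 for each, for example at 9.21 to 9.44 against 8.70 to 8.98 for Plk3. Of the 12 largest increases, Fthl17f (0.81), Fam71a (0.85) and Pxdc1 (0.67) lost their calls without some arrays (adjusted p up to 0.0906, 0.104 and 0.0588). The first of these, a ferritin heavy chain-like gene, lay near the 40th percentile of the array in experiments 2 and 3.

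Of the genes lower in experiment 1 that the rule for named genes takes, which leaves out small RNAs, Ighm had the largest difference. It encodes the constant region of the immunoglobulin mu heavy chain and fell with LPS in all experiments. Ighm had 4.46, 4.84, 4.89 and 4.46 on the LPS arrays of experiment 1 and 8.21 without LPS. In experiments 2 and 3 it lay between 5.72 and 6.30 (median 6.06) with LPS and at 9.34 and 8.71 without. Experiment 1 was below both others in every treatment, 2.42-fold on average, with a difference of -1.27 ± 0.14 (adjusted p = 0.00363), and experiments 2 and 3 differed from each other by 0.03. The B-cell markers Ms4a1, Cd79a, Cd79b and Pax5 were all too dim to be tested, at mean percentiles of 11.3 to 32.1 in experiment 1 and 12.7 to 34.7 in experiments 2 and 3.

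Complement genes that were lower were Cfp and the 3 chains of C1q, all 4 picked out after their values were seen. Cfp encodes properdin, which stabilises the alternative pathway's convertase, and had 10.41, 10.45, 10.33 and 10.46 with LPS and 10.52 without in experiment 1. In experiments 2 and 3 it lay between 10.93 and 11.16 (median 11.07) with LPS and at 11.02 and 11.23 without, so that no array of experiment 1 reached any other. The difference of -0.63 ± 0.05 had an adjusted p of 0.00143, and LPS itself did not pass for this gene (-0.13, adjusted p = 0.254). The chains of C1q, which starts the classical pathway, were lower as well: C1qa by a difference of -0.55 (adjusted p = 0.0116), C1qb of -0.43 (adjusted p = 0.00496) and C1qc of -0.40 (adjusted p = 0.0277). The C1qc call was lost without 9 of the 15 arrays (adjusted p up to 0.0895).

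Further decreases were those of Clec2d, Cp and Cd209a. Clec2d, a lectin-like ligand of a natural killer cell receptor, had 4.45 to 5.20 on the LPS arrays of experiment 1 and 5.46 to 6.20 on those of experiments 2 and 3, with a difference of -0.97 ± 0.13 (adjusted p = 0.00501). Cp, the copper-binding ferroxidase ceruloplasmin, had 7.98 to 8.14 and 8.62 to 9.08, with -0.75 ± 0.09 (adjusted p = 0.00424). Cd209a, a pathogen-binding lectin, had 8.40 to 8.77 and 8.79 to 9.39, with -0.70 ± 0.11 (adjusted p = 0.009). None of these LPS ranges overlapped. Mmp9, a gelatinase, was lower by a difference of -0.34 (adjusted p = 0.00726), and Mylip, which targets the low-density lipoprotein receptor for breakdown, by -0.45 (adjusted p = 0.00363). Rab26os, annotated opposite Rab26, was lower by -0.63 (adjusted p = 0.00466), and whether the probes separate it from its partner is not given in the sources used here.

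Of 35 type I interferon-stimulated genes tested, 7 were lower in experiment 1, against 1.91% of all genes. None was higher and 28 did not pass, with a median of -0.14. Cmpk2, a mitochondrial nucleotide kinase, had 9.78, 9.82, 9.64 and 10.13 on the LPS arrays of experiment 1 and 7.32 without LPS, against 10.25 to 10.79 (median 10.45) and 7.83 and 7.59 in experiments 2 and 3. Ifit1, which binds viral RNA, had 8.80, 9.04, 8.78 and 9.31 with LPS and 5.60 without, against 9.32 to 10.01 (median 9.67) and 5.87 and 5.74. Each experiment 1 array of both genes was below both others of its treatment, by -0.57 ± 0.06 (adjusted p = 0.00266) for Cmpk2 and -0.58 ± 0.08 (adjusted p = 0.0059) for Ifit1. The other 5 were Mx1 (-0.54), Usp18 (-0.34), Ifit2 (-0.33), Phf11d (-0.30) and Mx2 (-0.28), which lost their calls without some arrays, and the list's count was 2 without the 13-HDHEA array of experiment 1. It also moved by over 1.5 times without any other LPS array of experiment 1.

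Guanylate-binding proteins and immunity-related GTPases, interferon-gamma-type effectors against intracellular pathogens, had a median of -0.33, with 6 of 13 lower and none higher. Over all genes 1.91% were lower. Gbp5 had 7.45, 7.44, 7.13 and 7.70 on the LPS arrays of experiment 1, with -0.59 ± 0.08 (adjusted p = 0.00496). Its distance was from experiment 3 (-1.01), where LPS arrays lay at 8.40 to 8.64, and the difference from experiment 2 did not pass (-0.18, adjusted p = 0.322). The largest difference was that of Gbp11 (-0.93, adjusted p = 0.0305), which had 4.23, 3.92, 3.04 and 4.13 on the LPS arrays of experiment 1 in the same order, and Gbp3 and Gbp9 had -0.40 each. Calls of these 3 were lost without most of the 15 arrays (adjusted p up to 0.113, 0.160 and 0.110). Gbp2b (-0.48) and Gbp7 (-0.28) were lower against both, with calls lost without some arrays (adjusted p up to 0.0658 and 0.113), and close copies in this family may share probe signal. Only 1 member was called without the vehicle array with LPS of experiment 1, and 11 of the 15 arrays lowered the count by over 1.5 times.

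Promoters of 3 of the lower genes are shown because both lists held several genes that were lower. The letters GAAA, any 2 bases and GAAA again, the core of the interferon-stimulated response element, were sought on both strands in the 300 bases around each start (RefSeq, GRCm38.p6). They stood in 14 of 30 promoters of tested interferon-stimulated genes (46.7%, 26 of 35 genes matched) and in 7 of 8 promoters of the guanylate-binding list (87.5%, 7 of 13 genes matched), against 3.45% of all 32544 promoters. Of the called members, 1 of 5 and 4 of 5 promoters held them. Capitals mark the matches, which read here as the reverse complement, in 120 bases of the plus strand within the 250 before the start, at chr19:34640749-34640868, chr3:142496714-142496833 and chr3:142530216-142530335.
Ifit1: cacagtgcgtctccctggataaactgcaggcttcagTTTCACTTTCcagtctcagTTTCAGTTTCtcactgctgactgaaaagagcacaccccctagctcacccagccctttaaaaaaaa
Gbp5: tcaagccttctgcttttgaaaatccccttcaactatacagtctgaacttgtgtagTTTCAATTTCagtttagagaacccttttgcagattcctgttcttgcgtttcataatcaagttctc
Gbp7: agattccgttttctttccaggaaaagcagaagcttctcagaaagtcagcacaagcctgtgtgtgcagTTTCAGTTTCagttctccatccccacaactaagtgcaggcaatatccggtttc

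Of 24 cell cycle and mitosis genes tested, 10 were lower in experiment 1, against 1.91% of all genes, and none was higher. All 24 lay below 0, with a median of -0.30. By treatment the medians were -0.31, -0.41, -0.47 and -0.34 with LPS and 13-HDHEA, 16-HDHEA, both or vehicle, and 0.08 without LPS. Ccnb2, the cyclin B2 that drives entry into mitosis, had 6.48, 6.63, 6.60 and 6.52 on the LPS arrays of experiment 1, against 6.76 to 7.77 (median 7.14) in experiments 2 and 3. Without LPS it had 9.52, against 9.80 and 9.66. The difference was -0.55 ± 0.09 (adjusted p = 0.011). Birc5, or survivin, which guides chromosome segregation, had 5.06 to 5.49 against 5.84 to 6.17 with LPS, and 7.65 against 7.77 and 7.67 without (-0.55, adjusted p = 0.0152). The kinesin Kif20a, at -0.46, had 7.45 to 7.56 against 7.92 to 8.42 with LPS.

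All 24 of these genes fell with LPS. The median LPS-against-none difference over the list, taken with vehicle, was -2.20 in experiment 1, -1.65 in experiment 2 and -1.76 in experiment 3. No member passed the test of whether its experiment 1 difference changed with LPS (smallest adjusted p = 0.198, for Kif20a). Of the 22 replication genes 5 were lower, Mcm7 (-0.41), Tk1 (-0.41), Cdc45 (-0.39) and Mcm5 (-0.26) among them, against 1.91% of all genes. The replication list had a median of -0.19, and medians of -0.21 to -0.37 with LPS and 0.02 without. Counts in both lists rested on single arrays. The cell cycle count was 1 without the 16-HDHEA or the combined array of experiment 1, lower by over 1.5 times without any of the 12 LPS arrays, and 21 without the no-LPS array of experiment 1. The replication count lay between 0 and 11, and any LPS array of experiment 1 left out lowered it. On the LPS arrays alone, 22 of 24 and 11 of 22 genes were called lower, against 345 of all 15468 genes.

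Replication-dependent histone genes have messages made in S phase. Of 14 tested, 6 were lower in experiment 1, against 1.91% of all genes, and none was higher. All 14 lay below 0, and the median of -0.43 was -0.33 to -0.75 with LPS and -0.39 without. H2bc18 had 6.17, 6.06, 5.76 and 6.37 with LPS and 7.62 without in experiment 1, against 6.45 to 7.01 (median 6.80) and 8.13 and 8.28 in experiments 2 and 3, with -0.69 ± 0.10 (adjusted p = 0.00823). The linker histone H1f5 had 6.02, 6.04, 5.41 and 5.80 with LPS and 8.34 without, against 6.25 to 6.58 (median 6.46) and 8.64 and 8.89, with -0.60 ± 0.10 (adjusted p = 0.00971). No array of experiment 1 reached another of its treatment for either gene. The other called members were H2bc12 (-0.73), H2ac10 (-0.64), H2ac20 (-0.48) and H4c12 (-0.45), each of which lost the call without some arrays (H4c12 at an adjusted p of up to 0.108). H4f16, a histone gene outside the list, was lower by -0.70 and kept its call through all left-out arrays. Histone copies are near-identical, so signal may be shared among them. The list's count was 3 without the vehicle array with LPS of experiment 1, and also moved by over 1.5 times without its 16-HDHEA array.

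Promoters of division and histone genes share the CCAAT box, which stood on either strand in 17 of 19 promoters of the cell cycle list (89.5%, 19 of 24 genes matched) and in 11 of 14 of the histone list (78.6%), against 37.4% of all promoters. The letters TTTGAA, the core of the cell cycle gene homology region, stood in 15 of 19 (78.9%), against 17.8%. Of the called members, 4 of 6 cell cycle and 5 of 6 histone promoters held a CCAAT box. Below are 120 bases before the starts of Ccnb2 and H1f5, read along the gene on the minus strand (chr9:70421555-70421674 and chr13:21780626-21780745, GRCm38.p6, RefSeq), shown for their repeated boxes, with CCAAT or its reverse complement in capitals.
Ccnb2: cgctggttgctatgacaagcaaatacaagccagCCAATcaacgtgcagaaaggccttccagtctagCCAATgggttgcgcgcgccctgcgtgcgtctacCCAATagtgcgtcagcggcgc
H1f5: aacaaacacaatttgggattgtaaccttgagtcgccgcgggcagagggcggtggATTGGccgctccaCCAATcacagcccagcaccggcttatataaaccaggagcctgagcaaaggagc

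**Figure D4:**
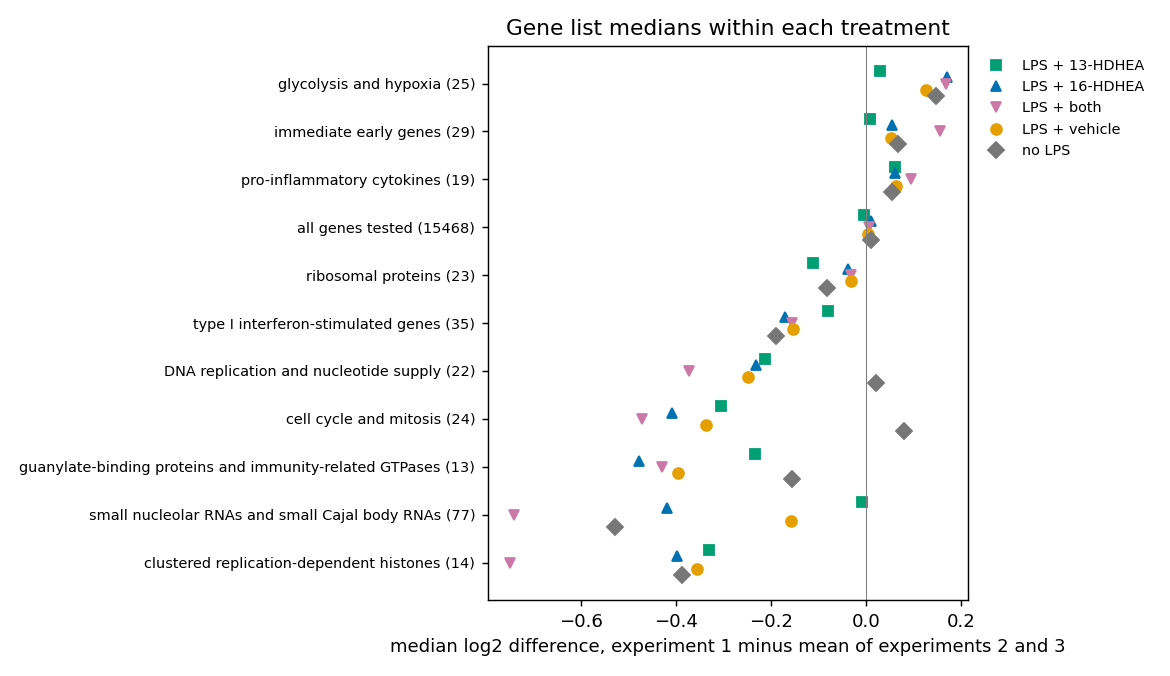
Median log2 difference of each gene list in each treatment, experiment 1 minus the mean of experiments 2 and 3, with the number of genes tested in brackets. The cell cycle and replication lists lie below 0 with LPS and at 0.08 and 0.02 without, and the histone list lies below 0 in all 5 treatments.

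Small nucleolar RNAs, which guide chemical modification of ribosomal RNA, had a median of -0.36, and 18 of 77 were lower and none higher. Over all genes 1.91% were lower. Snora69 had 3.85, 4.29, 4.89 and 4.41 with LPS and 4.79 without in experiment 1, against 4.79 to 6.04 (median 5.67) and 6.02 and 6.26 in experiments 2 and 3, with -1.20 ± 0.14 (adjusted p = 0.00424). Snora74a had 4.77 to 5.36 over all 5 arrays of experiment 1 and 5.94 to 6.43 over the 10 others, with no overlap, and -1.06 ± 0.10 (adjusted p = 0.00212). Scarna10, a Cajal body RNA that guides modification of spliceosomal RNA, was lower by -0.84 (adjusted p = 0.00483). The H/ACA class had 10 of 26 lower, the C/D class 6 of 46 and the Cajal body class 2 of 5. Other small RNAs lower in experiment 1 were n-R5s136, a 5S ribosomal RNA entry (-0.90), Rpph1, the RNA of ribonuclease P (-0.71), and the Y RNA Rny1 (-0.55), 3 of 10 tested. Calls of Rpph1 and Rny1 were lost without some arrays (adjusted p up to 0.0573 and 0.102 in limma). The count of this list was 1 without the 16-HDHEA array of experiment 1.

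The small nucleolar RNA medians were uneven between arrays. By treatment they were -0.01, -0.42, -0.74 and -0.16 with LPS and 13-HDHEA, 16-HDHEA, both or vehicle, and -0.53 without LPS. The list was closer to experiment 2 (-0.20) than to experiment 3 (-0.57), and experiment 2 was itself below experiment 3 (-0.29). Its count was 10 without the 16-HDHEA or the combined array of experiment 1, and reached 26 without the 13-HDHEA array of experiment 2. Long RNAs that host these small RNAs in their introns were lower too: 7 of 15, a group chosen after its values were seen, with a median of -0.29. Zfas1 had 7.83, 7.90, 7.32 and 7.96 with LPS and 7.64 without in experiment 1, against 8.17 to 8.80 (median 8.59) and 8.38 and 8.51 in experiments 2 and 3, with -0.79 ± 0.12 (adjusted p = 0.00848). Snhg15 was lower by -0.41 (adjusted p = 0.0059). Of 23 ribosomal protein genes none was called, with a median of -0.05, and of 10 mitochondrially encoded genes none, with -0.07. Over all genes 4.12% were called.

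A difference of differences asked which genes stood apart in experiment 1 more with LPS than without it. It called 6 genes (0.0388%), 4 upward (0.0259%) and 2 downward (0.0129%), and 1344 had an unadjusted p under 0.05. Csf3 (1.36, adjusted p = 0.00709 in limma) and Stfa2l1 (2.26, adjusted p = 0.00221) kept the call in 18 other settings. Neither was called with a separate experiment 1 difference for every treatment, a fit that pooled experiments 2 and 3. Stfa2l1 had 2.64 in experiment 1 without LPS, against 2.71 and 2.61, all below the array's 40th percentile, as were the 3 values of Csf3, so these values have no order. Tm4sf1, a tetraspanin-like membrane protein gene, had 4.87, 5.01, 5.14 and 5.35 with LPS in experiment 1, against 3.74 to 4.33 in experiments 2 and 3, and 2.73 without LPS, against 3.60 and 3.68 (1.97, adjusted p = 0.0193). The value of 2.73 lies below the array's 40th percentile, and with that percentile in its place the difference is at least 1.52. Urah, which acts in urate breakdown, had 2.65 without LPS in experiment 1, against 3.58 and 4.49 (1.42, adjusted p = 0.0126). The value of 2.65 is likewise below the 40th percentile, so that the difference is at least 0.90.

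The downward genes were Ccl22, which encodes a chemokine for regulatory T cells (-1.56, adjusted p = 0.0473), and 6530402F18Rik (-1.54, adjusted p = 0.0473), a gene without a name that the rule leaves out. Without LPS 2 of the 3 arrays of this gene were below the 40th percentile, which leaves a difference of at least 0.71 in size. For Ccl22 the pattern was that of experiment 3, whose LPS arrays lay at 9.07 to 9.32, while experiments 1 and 2 lay together at 7.10 to 7.32 and 7.04 to 7.60. The calls of Tm4sf1 and Urah were lost without 5 and 3 of the 12 LPS arrays (adjusted p up to 0.0812 and 0.0575), among them the vehicle and combined arrays of experiment 1, and that of Ccl22 without 11 of them (up to 0.148). With a separate experiment 1 difference for every treatment, and experiments 2 and 3 pooled, no gene was called.

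**Figure D5:**
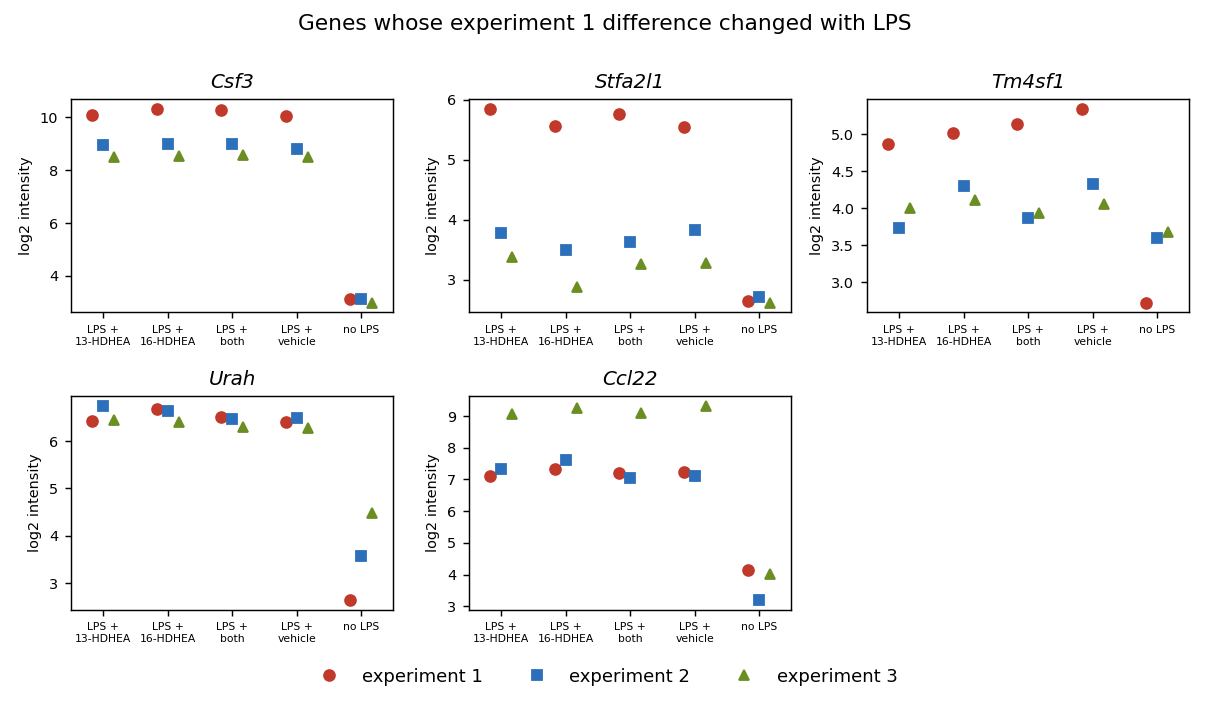
Log2 intensity on each of the 15 arrays for 5 genes whose experiment 1 difference changed with LPS, by treatment, with 1 point per array. Csf3, Stfa2l1 and Tm4sf1 are high in experiment 1 on LPS arrays, Urah is lowest in experiment 1 without LPS, and Ccl22 is high in experiment 3 with LPS.

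By chromosome, the share of genes called ran between 2.51% and 5.86% over the autosomes and X, and medians between -0.02 and 0.02. Mnd1, a meiotic recombination gene that is lowest on the 13-HDHEA arrays of every experiment, did not differ by a margin that passed (-0.11, adjusted p = 0.528). On the 13-HDHEA arrays it had 3.13 in experiment 1, 2.79 in experiment 2 and 2.85 in experiment 3, all below the 40th percentile of the array.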

How the data were processed

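Total RNA of 15 RAW264.7 cultures was measured on biotin-labelled Affymetrix whole-transcript arrays, per the labels' protocols, which also state that only intact RNA was used. The authors deposited log2 values per probe set made with RMA (background correction, quantile normalization, probe summary), per the submitters' processing notes. No version or chip definition is stated there. Quantile normalization hides shifts shared by most genes. Array medians lay between 3.62 and 3.69, values between 0.473 and 13.36, and the number of arrays limits the precision.

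Of 41345 probe sets, 23521 had 1 gene symbol in the platform's gene table. For genes with several, the probe set with the highest mean was kept (22180 genes), and 15468 genes above their array's 40th percentile in at least 3 arrays were tested. limma 3.58.1 (lmFit, eBayes, R 4.3.3) was fitted over all arrays with treatment and experiment as terms (8 residual degrees of freedom, prior 3.24), two-sided, with Benjamini-Hochberg adjustment over all genes and calls at 0.05. The interaction fit let experiment differences change with LPS, and a last fit used experiment means. The fits were tested on simulated data. SE and 95% intervals are from the fit.

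The labels give each replicate number an experiment identifier, so same-numbered arrays share an experiment. Their deviations from treatment means correlated between 0.0835 and 0.404 over 30 pairs, above 0.1 in 28, and the experiment is therefore a term throughout.

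44 gene lists were used. The members and lists were chosen with earlier results of these data known. The rule named the 12 largest differences on each side, among called genes whose sign held in all 5 treatments and against both experiments (predicted and small RNA genes apart), the 3 smallest p of every list, up to 4 interaction genes a direction, and always Tnf, Il1b, Il6, Nos2, Ptgs2 and Mnd1. Other genes in the text were added after their values were seen. Promoter sequences are RefSeq's for GRCm38.p6, with 250 bases before and 50 after each start. A level below the mean 40th percentile gives a fold as a lower bound. For bounds on interaction genes alone, and not for their test, array values below that percentile were set to it, a step added after the values were seen. Percentiles are ranks among all probe sets of an array, and a list's summed level is the log2 of its summed linear values.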

Additional observations from a re-analysis of the deposited data

Results flagged for a closer look

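For 30 genes (the 24 with the largest differences and the 6 always named), the 5 treatments' differences of experiment 1 from experiments 2 and 3 were checked for 1 treatment far from the other 4. Chance flags about 1 in 20 such sets, and 6 were flagged. In 4 of them the treatment was the one without LPS: Csf3 (0.074, against 1.17 over all treatments), Pxdc1 (0.17), Ptgs2 (0.61) and Il6 (0.37). Nos2 stood out with the combined treatment (0.79) and Mnd1 with 13-HDHEA (0.31). All 3 arrays without LPS of Csf3 and Il6, and all 3 with 13-HDHEA of Mnd1, lay below the array's 40th percentile, so those differences are between values at background and have no order.

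The difference of experiment 1 with LPS minus that without LPS passed its own test for Stfa2l1 (2.26), Tm4sf1 (1.97), Urah (1.42), Csf3 (1.36) and Ccl22 (-1.56). With values below the 40th percentile set to it, the differences of Tm4sf1 and Urah are at least 1.52 and at least 0.90.

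Probe sets that entered no comparison also differed. Of 1239 tested probe sets with several gene symbols, 45 were called (3.63%), 4 higher and 41 lower in experiment 1, and they are unnamed here. Of 9889 tested probe sets that the gene table does not list, 4 were called (0.0404%), 2 higher and 2 lower.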

How the results depend on the processing

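Calls between experiments depend on the fit far more than the differences do. Without a filter on low values the main comparison gave 358 calls (188 higher, 170 lower), experiments 1 against 2 gave 180, 1 against 3 gave 368, 2 against 3 gave 98 and any difference 438. With the filter at the 60th percentile these were 1265 (689 and 576), 796, 1244, 440 and 1490, with 10 interaction calls and 1 from experiment means. With a trended, robust prior they were 1388 (749 and 639), 916, 1356, 546 and 1782, with 75 interaction calls. Experiment coded as 1 against the rest gave 391 (199 and 192). With only the 6 arrays without HDHEA, all these comparisons gave 0, as did experiment means there, on the LPS groups alone, after centring or after repeated quantile normalization. Experiment means as the unit gave 4 (3 and 1), and a difference for every treatment, with experiments 2 and 3 pooled, gave 0 interaction calls. Leaving out 1 array gave 148 to 756 calls (61 to 397 higher, 82 to 359 lower), 73 to 480 for experiments 1 against 2, 196 to 852 for 1 against 3, 54 to 242 for 2 against 3, 285 to 904 for any difference, 2 to 5 interaction calls and 4518 to 5278 for LPS. Without replicate 3 (experiment 3) the main count was 22 (11 higher, 11 lower), and without replicate 2 it was 227 (99 higher, 128 lower).

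Without the experiment as a block, the pairing left out, LPS with vehicle against no LPS gave 4616 calls in place of 5313. The sign turned for genes that had not passed: Urah was 0.038 on the LPS groups alone, and between -0.35 and 0.038 with an array or experiment left out, the highest without the no-LPS array of experiment 1. Ccl22 was between -1.55 (without experiment 2) and 0.15 (without experiment 3). The interaction could not be fitted without a no-LPS array. Only 3 experiments exist, so nothing here separates an experiment from what else differed with it.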
